A study of Mus musculus with 10 samples.

Results

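Bone morphogenetic proteins (BMPs) were followed here through 10 genes: the ligand genes Bmp2, Bmp4 and Bmp6, the genes of the secreted binding proteins Nog, Grem1, Bmper and Fst, the pseudoreceptor gene Bambi, and the receptor genes Bmpr1a and Bmpr2. All 10 are among the 26401 genes of the count table, and 8 of them passed the expression filter and were among the 12964 genes tested. Bmp6 and Fst did not pass it. The 10 genes were picked by name with the high and low values of these same libraries in view, so their own differences between the groups are given as a description. No p-value is given for them, and nothing is read from how many of them a fit over all genes called.

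RNA came from immortalized mouse embryonic fibroblasts labelled C57Bl/6N, all with the mitochondrial DNA change m.5024C>T, grown in high glucose DMEM with serum and uridine and given no treatment. Each of the 10 libraries comes from a population with its own clone number: 5 with a high share of mutant mitochondrial genomes (here high 1 to high 5) and 5 with a low share (here low 1 to low 5). No library without the mutation was analysed here, so both groups carry it and differ in its share, and the sources used here do not give that share clone by clone. Nor do they say whether the clones came from separate embryos, so p-values measure the spread between these clones, which is the error used throughout.

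BMPs are secreted dimers that bring type I and type II receptor kinases together at the cell surface. The type II receptor switches on the type I receptor, which phosphorylates the Smads of the BMP branch, and these enter the nucleus and turn on genes such as those of the Id family. Binding proteins outside the cell hold BMPs away from the receptors, and in fibroblasts and other mesenchymal cells the balance between ligand and binding protein bears on bone, cartilage and fat cell fates.

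Library totals ran from 17318372 to 28208576 counts, so that 1 count was worth 0.0333 to 0.057 CPM (read counts scaled by library total and TMM factor). The list of 11 fibroblast genes summed to 9413 to 19630 CPM in the high and 11560 to 13430 CPM in the low libraries, and 0 of its 8 tested genes passed in edgeR. Col1a1 (3310 to 7321 CPM), Vim and Fn1 were abundant in all libraries. Other fibroblast genes varied by clone: Col1a2 ran from 1.98 to 886.3 CPM, Pdgfra from 0.266 to 50.9 CPM and Thy1 from 0 to 56.8 CPM, and Lum and Postn were at 0.129 CPM or less. Dcn was at 0 to 0.61 CPM in the high and 0.49 to 3.53 CPM in the low libraries (log2 fold change -3.59, adjusted p = 0.0534 with edgeR, 0.00567 with DESeq2 and 0.0241 with limma-voom). The endothelial list summed to at most 1.72 CPM in any library, with Cdh5 and Tie1 at 0. Of the haematopoietic list Ptprc and Laptm5 were at 0, while Cd68 was at 11.7 to 89.97 CPM in the high and 12.3 to 26.02 CPM in the low libraries. The muscle list summed to 4.39 to 26.1 CPM in the high and 2.67 to 5.41 CPM in the low libraries, mostly through Des (log2 fold change 1.75, adjusted p = 0.0543 with edgeR, 0.00338 with DESeq2), with Myog at 0. The summed level of the adipocyte list was 87.8 to 287.0 CPM in the high and 22 to 37.5 CPM in the low libraries, with Adipoq at most at 0.0418 CPM. In edgeR 3 of its 3 tested genes (Fabp4, Plin4 and Pparg) rose. Limma-voom did not call Fabp4 (adjusted p = 0.0788). The Pparg call was kept in 2 of 10 fits that left out a library. It was lost with the shift of its whole chromosome taken out of each library (edgeR adjusted p = 0.1015). The osteoblast and cartilage list summed to 2.29 to 61.2 CPM in the high and 6.59 to 22.1 CPM in the low libraries, with Sp7 and Bglap at 0.378 CPM or less. Its 2 tested genes went opposite ways. Col10a1 rose, a call kept in 5 of 10 such fits and not made by limma-voom (adjusted p = 0.0798). Sox9 was at 0.457 to 5.72 CPM in the high and 5.06 to 21.8 CPM in the low libraries. The Sox9 log2 fold change was -2.155 (adjusted p = 0.061 with edgeR, 0.0026 with DESeq2 and 0.0563 with limma-voom). The epithelial list summed to 112.9 to 509.6 CPM in the high and 453.7 to 672.1 CPM in the low libraries, with Esrp1 at 0. Krt18 was the 1 rise among 4 tested genes (median log2 fold change -1.38), a call not made by limma-voom (adjusted p = 0.121). Krt19 was at 109.5 to 383.6 CPM in the high and 442.3 to 666.1 CPM in the low libraries. Its log2 fold change was -1.39 (adjusted p = 0.0509 with edgeR, 0.00217 with DESeq2 and 0.0303 with limma-voom). Krt8 (-1.36) and Cdh1 (-2.725) were called by DESeq2 alone (adjusted p = 0.0289 and 0.027). The part of these cell type genes in the results below was not tested, and in bulk RNA fewer cells of a type and less RNA per cell cannot be told apart.

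The high clones had more Bmp2 RNA and less RNA of the binding protein genes Nog, Grem1 and Bmper than the low clones, in 4 of 5 clones for each gene. The clone that departed was high 1 for Bmp2 and high 4 for the other 3 genes. For Bmp4 and both receptors the groups overlapped. Of the 10 genes, 2 had a higher mean CPM in the high group (Bmp2 and Bmp4) and 8 a lower one. Those 8 include Bmp6 and Fst, which did not pass the filter, and both receptors, whose means hardly differed. Bmpr1a was at 124.7 (high) and 127.7 CPM (low), and Bmpr2 at 66.4 and 66.7 CPM. The split over all genes was not worked out. The groups did not separate fully for any of the 10, where 7.17% of all tested genes separated.

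**Figure D1:**
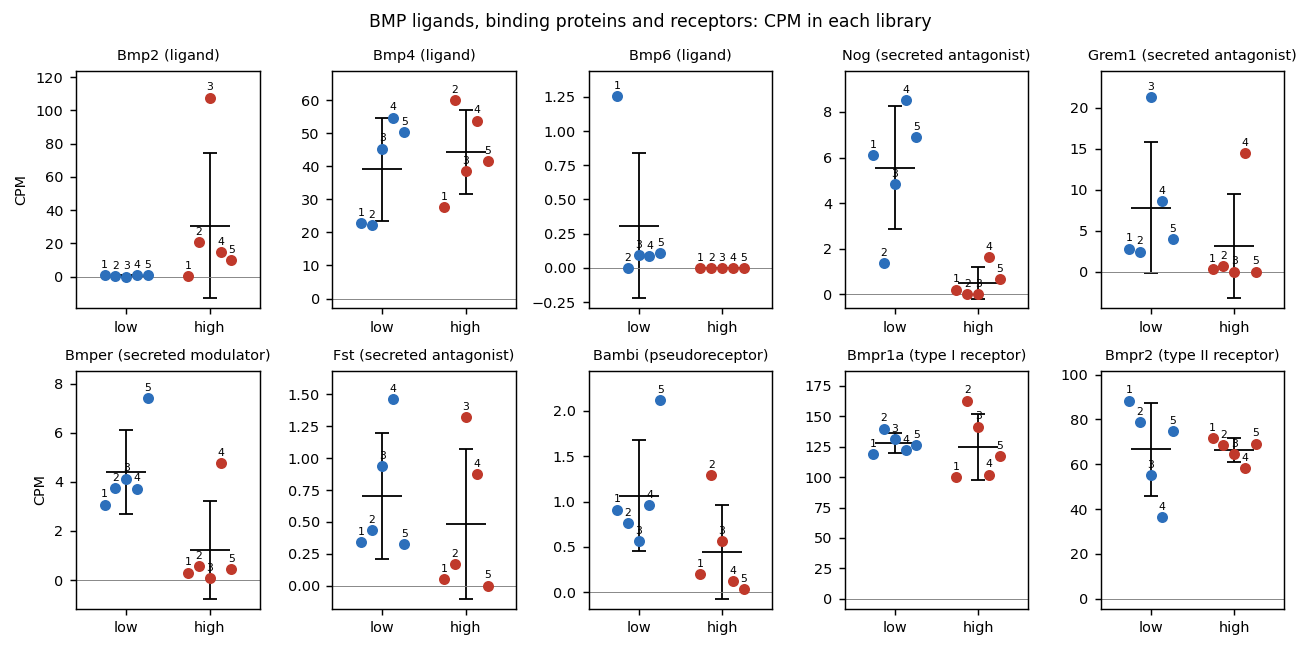
CPM of the 10 BMP genes (vertical axes, linear, 1 panel per gene) in the 5 low (blue) and 5 high (red) libraries, numbered by replicate, with the group mean and SD in black. High 3 stands far above the other libraries for Bmp2 (107.7 CPM), and high 4 lies within or near the low values for Nog, Grem1 and Bmper while the other 4 high libraries lie near 0.

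Bmp2 encodes a ligand that drives bone and cartilage formation (ENSMUSG00000027358, chromosome 2, 133552159 to 133562885 in GRCm38). It was at 0.406, 20.6, 107.7, 14.6 and 9.95 CPM in high 1 to high 5. In low 1 to low 5 it was at 0.798, 0.326, 0, 1.05 and 0.925 CPM. Thus 4 high libraries lay above every low library, and high 1 lay among the low ones. The mean was 30.6 ± 43.7 CPM over the high and 0.619 ± 0.441 CPM over the low clones (SD, n = 5 each). The log2 fold change, high over low, was 5.62 (SE 1.27). High 3 alone held most of the high group's Bmp2, and without it the log2 fold change was 4.19.

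Bmp4 encodes the ligand closest to Bmp2 in sequence (ENSMUSG00000021835, chromosome 14, 46383520 to 46390669). It was at 27.7, 59.9, 38.5, 53.8 and 41.5 CPM in high 1 to high 5 and at 22.7, 22.2, 45.3, 54.7 and 50.4 CPM in low 1 to low 5. The groups overlapped over most of their range, and the log2 fold change was 0.18 (SE 0.30). Per kilobase of exon, Bmp4 had a mean level of 19.7 CPM in high clones and 17.4 CPM in low clones. The level of Bmp2 on the same per-length scale was 8.62 CPM in high clones and 0.174 CPM in low clones. Bmp2 exceeded Bmp4 in high 3 alone (30.3 against 17.1 CPM per kilobase), so Bmp4 was the more abundant ligand RNA in the other 9 libraries.

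Bmp4 and Bmpr1a lie on chromosome 14, whose genes as a whole were lower in the high libraries (median deviation per library from -0.38 to -0.02 on the log2 scale, against 0.06 to 0.46 in the low libraries; difference of the group means -0.40). With this shift taken out of each library, the log2 fold changes were 0.61 (SE 0.26) for Bmp4 and 0.34 (SE 0.15) for Bmpr1a. Both estimates were thus above 0 when set against the other genes of their chromosome. This is a description, as for all members, and the fit with this step called 0 of the 8 tested members. Without the step, the mean of Bmpr1a was 124.7 CPM in the high and 127.7 CPM in the low clones. For the other 6 tested genes the same step moved the log2 fold change by less than their SE.

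Bmp6, the third ligand gene, had 0 counts in the 5 high libraries and 22, 0, 2, 2 and 2 counts in low 1 to low 5. With the high group set at its floor of 3 counts in all, Bmp6 came out 11.7-fold lower there, and 3.04-fold lower without low 1. These are not lower bounds, since sampling error of the low counts was left out. Most of the Bmp6 signal came from low 1 (1.25 CPM). Its exons overlap those of Txndc5 on the other strand, which was at a mean of 195.7 CPM, so these few counts are uncertain, since the sources name no strand setting for the counting.

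Nog encodes noggin, which binds BMPs and blocks both of their receptor contacts (ENSMUSG00000048616, chromosome 11, 89300638 to 89302332). It was at 0.203, 0, 0, 1.63 and 0.666 CPM in high 1 to high 5. In low 1 to low 5 it was at 6.10, 1.36, 4.83, 8.54 and 6.91 CPM. High 4 was above low 2, and the other 4 high libraries were below every low library. Its mean was 0.50 ± 0.688 CPM over the high and 5.55 ± 2.7 CPM over the low clones (SD, n = 5 each). The Nog log2 fold change was -3.45 (SE 1.06).

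Grem1 encodes gremlin, an antagonist of Bmp2 and Bmp4 (ENSMUSG00000074934, chromosome 2, 113746164 to 113758646). It was at 0.305, 0.645, 0, 14.4 and 0 CPM in high 1 to high 5. In low 1 to low 5 it was at 2.79, 2.44, 21.3, 8.58 and 3.92 CPM. High 4 exceeded 4 of the 5 low libraries, and the other 4 high libraries had 21 counts in all. The log2 fold change was -1.35 (SE 1.44) over all libraries and -5.06 (SE 1.25) without high 4. Without low 3, the highest low library, it was -0.53 (SE 1.52). Limma-voom, which averages log values, put the Grem1 log2 fold change at -4.58 over the same 10 libraries.

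Bmper encodes a secreted protein that binds BMPs and can damp or help their signalling (ENSMUSG00000031963, chromosome 9, 23223076 to 23485200). It was at 0.305, 0.559, 0.0757, 4.77 and 0.433 CPM in high 1 to high 5 and at 3.08, 3.75, 4.13, 3.72 and 7.40 CPM in low 1 to low 5. High 4 again lay among the low libraries and the other 4 high libraries far below them. The log2 fold change was -1.84 (SE 0.87) over all libraries and -3.67 (SE 0.56) without high 4.

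Without high 4, Nog, Grem1 and Bmper were the 3 of the 10 genes whose groups did not overlap, all with lower values in the high clones. Of all genes tested in that set of libraries 11.2% did not overlap and 6.13% had the high clones below the low ones. The count was 1 without high 1 (Bmp2; 10.7% of all genes), 2 without low 2 (Nog and Bmp6; 8.88%) and 2 without low 2 and low 3 (Nog and Bmp6; 11.8%). Bmp6 did not pass the filter in these sets, so it is not among the genes behind the shares. Its separation rests on 2 counts each in low 3, low 4 and low 5, beside 22 in low 1. Counts were pooled over the libraries of each group and scaled by the group's summed library totals with TMM factors. The low-to-high ratio was then 2.69 for Grem1, 3.54 for Bmper and 10.9 for Nog, and without high 4 it was 39.2, 12.8 and 23.5. High 4 is set apart here because its values were seen to depart, so the larger ratios only restate the values given above.

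**Figure D2:**
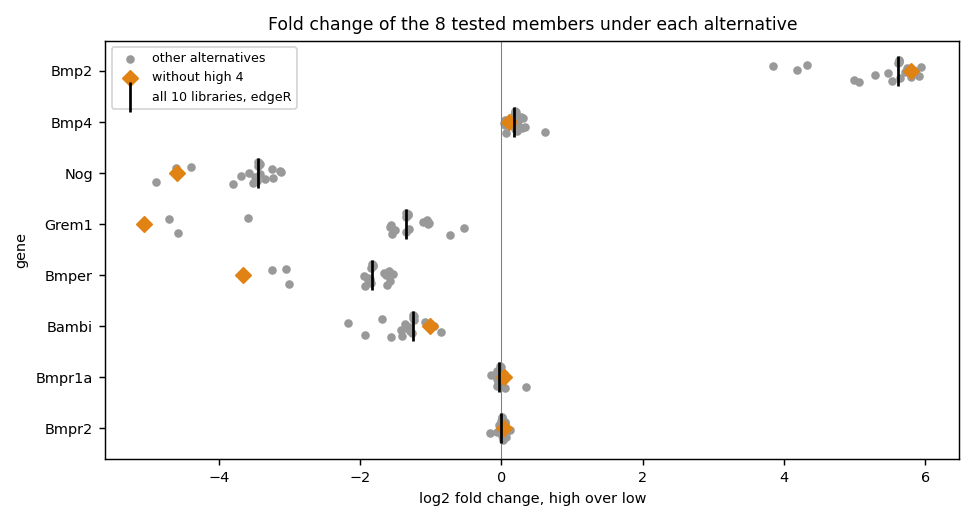
Log2 fold change, high over low (horizontal axis), of the 8 tested BMP genes under edgeR with all 10 libraries (black bar), without high 4 (orange diamond) and under the other alternatives (grey points). The values of Grem1 run from -5.06 to -0.53, those of Bmp2 stay between 3.84 and 5.94, and Bmpr1a and Bmpr2 lie around 0.

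The DNA just before the start of Grem1 and Bmper is shown because both genes were near 0 in the same 4 high clones, and that of Bmp4 because its RNA was present in all. The sequences are the 250 bases before each RefSeq start in GRCm38.p6 (Grem1, chr2:113758649-113758898, minus strand; Bmper, chr9:23222826-23223075, plus strand; Bmp4, chr14:46390670-46390919, minus strand), written 5′ to 3′ along the gene. Capitals mark the motifs GGCGCC, a GC-rich element of BMP Smads, and CAGAC, the Smad box, searched on both strands.
Grem1: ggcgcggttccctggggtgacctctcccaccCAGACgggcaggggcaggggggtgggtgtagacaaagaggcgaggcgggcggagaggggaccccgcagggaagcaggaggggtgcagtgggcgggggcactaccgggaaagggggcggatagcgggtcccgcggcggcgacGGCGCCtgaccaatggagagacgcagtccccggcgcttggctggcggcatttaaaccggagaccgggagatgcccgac
Bmper: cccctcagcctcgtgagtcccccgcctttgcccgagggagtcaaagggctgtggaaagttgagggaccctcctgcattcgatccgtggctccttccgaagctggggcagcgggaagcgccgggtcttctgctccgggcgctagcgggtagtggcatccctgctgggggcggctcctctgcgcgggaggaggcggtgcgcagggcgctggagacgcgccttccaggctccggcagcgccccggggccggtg
Bmp4: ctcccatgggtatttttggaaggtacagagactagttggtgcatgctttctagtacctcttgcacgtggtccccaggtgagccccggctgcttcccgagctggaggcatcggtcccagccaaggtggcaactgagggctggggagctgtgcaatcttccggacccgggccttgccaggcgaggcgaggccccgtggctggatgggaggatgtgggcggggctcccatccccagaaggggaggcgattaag
Entries were matched for 6 of the 10 genes: these 3, Bmp6, Bmpr1a and Bmpr2. The Grem1 window held 1 GGCGCC and 1 CAGAC, the Bmpr1a and Bmpr2 windows 1 GGCGCC each and the Bmp6 window 1 CAGAC, and the Bmper and Bmp4 windows held neither. Among 32851 windows of this length in the RefSeq table, 9.59% held GGCGCC and 42.2% held CAGAC. The Grem1 and Bmper windows each had 24 CG dinucleotides, more than 88.0% of all windows, the Bmpr1a window had 36, more than 97.4%, the Bmp6 and Bmpr2 windows 22, more than 85.2%, and the Bmp4 window 11, more than 64.4% of them.

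Fst encodes follistatin, which binds activins tightly and BMPs less so. It was at 0.0508, 0.172, 1.32, 0.875 and 0 CPM in high 1 to high 5 and at 0.342, 0.435, 0.938, 1.46 and 0.327 CPM in low 1 to low 5. The groups overlapped, with 62 Fst counts over the high clones and 75 over the low ones. Bambi encodes a receptor-like protein without a kinase domain that dampens signalling (chromosome 18), and it was at 0.203, 1.29, 0.567, 0.119 and 0.0333 CPM in high 1 to high 5. In low 1 to low 5 Bambi was at 0.912, 0.761, 0.563, 0.962 and 2.12 CPM, so 3 high libraries were below all low ones and high 2 and high 3 were among them. Its log2 fold change was -1.26 (SE 0.74).

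The receptor RNAs were abundant, and their groups overlapped. Bmpr1a, a type I receptor kinase for Bmp2 and Bmp4 (chromosome 14), was at 100, 162.8, 141.5, 102.0 and 117.3 CPM in high 1 to high 5. In low 1 to low 5 it was at 118.8, 139.8, 131.1, 122.4 and 126.4 CPM, inside the range of the high libraries. Bmpr2, the type II receptor kinase (chromosome 1), was at 71.6, 68.6, 64.4, 58.3 and 69.2 CPM in high 1 to high 5 and at 88.3, 78.8, 55.2, 36.3 and 74.8 CPM in low 1 to low 5. Here the high libraries lay inside the range of the low ones. The log2 fold changes were -0.03 (SE 0.15) for Bmpr1a and -0.01 (SE 0.21) for Bmpr2. Per kilobase of exon, Bmpr1a had mean levels of 19.6 (high) and 20.1 CPM (low), beside 3.69 and 3.71 CPM for Bmpr2, whose annotated exons sum to 17983 bases.

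Grem1, Bmp2, Nog, Bmper and Bambi varied more between clones of 1 group than most tested genes did (91.6 to 99.2% had a smaller SD). The SD of log2 CPM within groups was 2.32 for Grem1, 2.27 for Bmp2, 1.52 for Nog, 1.32 for Bmper and 1.08 for Bambi. The median over all tested genes was 0.37 and the 95th percentile 1.36, so Grem1, Bmp2 and Nog lay beyond the latter. Bmp4 was at 0.55 (72.8% of genes had a smaller SD), Bmpr2 at 0.37 and Bmpr1a at 0.22, and Bmp6 and Fst were not tested. For Nog, Grem1 and Bmper the SD was larger in the high group (1.89, 3.02 and 1.80) than in the low group (1.02, 1.28 and 0.47). It was also larger in the high group for Bmp2 (2.82 against 1.53), Bambi (1.38 against 0.66) and Bmpr1a (0.30 against 0.09). Bmp4 (0.44 against 0.64) and Bmpr2 (0.12 against 0.52) went the other way. Weakly expressed genes also vary more by counting alone, and that part was not taken out.

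In the edgeR quasi-likelihood fit over all genes, 4.86% were called (630 of 12964, Benjamini-Hochberg adjusted p under 0.05), and 1 of the 8 tested BMP genes, Bmp2, was among them. DESeq2 called 2 (11.4% of all genes) and limma-voom 2 (5.1%). Of the 10 BMP genes, 7 were tested with DESeq2, 8 with limma-voom and 10 with no filter. Where libraries were left out, 8 or 9 of the 10 were tested. In fits that left out a library, edgeR called 4 of them without high 4 (6.1% of all genes), 1 without high 1 (6.25%) or high 5 (3.27%), and 0 without high 2 (2.73%), high 3 (1.76%), low 1 (1.8%), low 2 (1.85%), low 3 (1.93%), low 4 (2.05%) or low 5 (2.82%). With the replicate number as a block 1 was called (4.45%), and 0 with no filter (2.12%), with the sample code number as a term (3.69%), with an offset per chromosome (1.27%) or without low 2 and low 3 (0.414%). In these edgeR fits with 0 called, 2 to 4 of them were at an unadjusted p under 0.05. Since the choice of the 10 genes drew on this contrast, none of these counts says anything further about them. Over all genes the count of 630 fell to between 232 and 372 without any 1 of high 2, high 3 and the 5 low libraries. It was 56 without low 2 and low 3, which were rich in the ribosomal RNA-like Gm42418 (40940 and 8017 CPM, against 744.7 to 1616 CPM elsewhere).

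Outside these 10 genes, 7 of the 47 tested BMP pathway genes in 5 lists rose and 1 fell (edgeR, adjusted p under 0.05). The 8 were signal transducers (3) and target genes (5), and the lists were not tested against each other. Over all tested genes 1.99% rose and 2.87% fell. The lists held 81 genes, 77 of them in the count table, and were drawn up with some results of these data known, among them that of Atoh8. The count was 5 without high 2 or without any 1 of low 1 to low 4, and 1 (Atoh8) without low 2 and low 3 together.

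**Figure D3:**
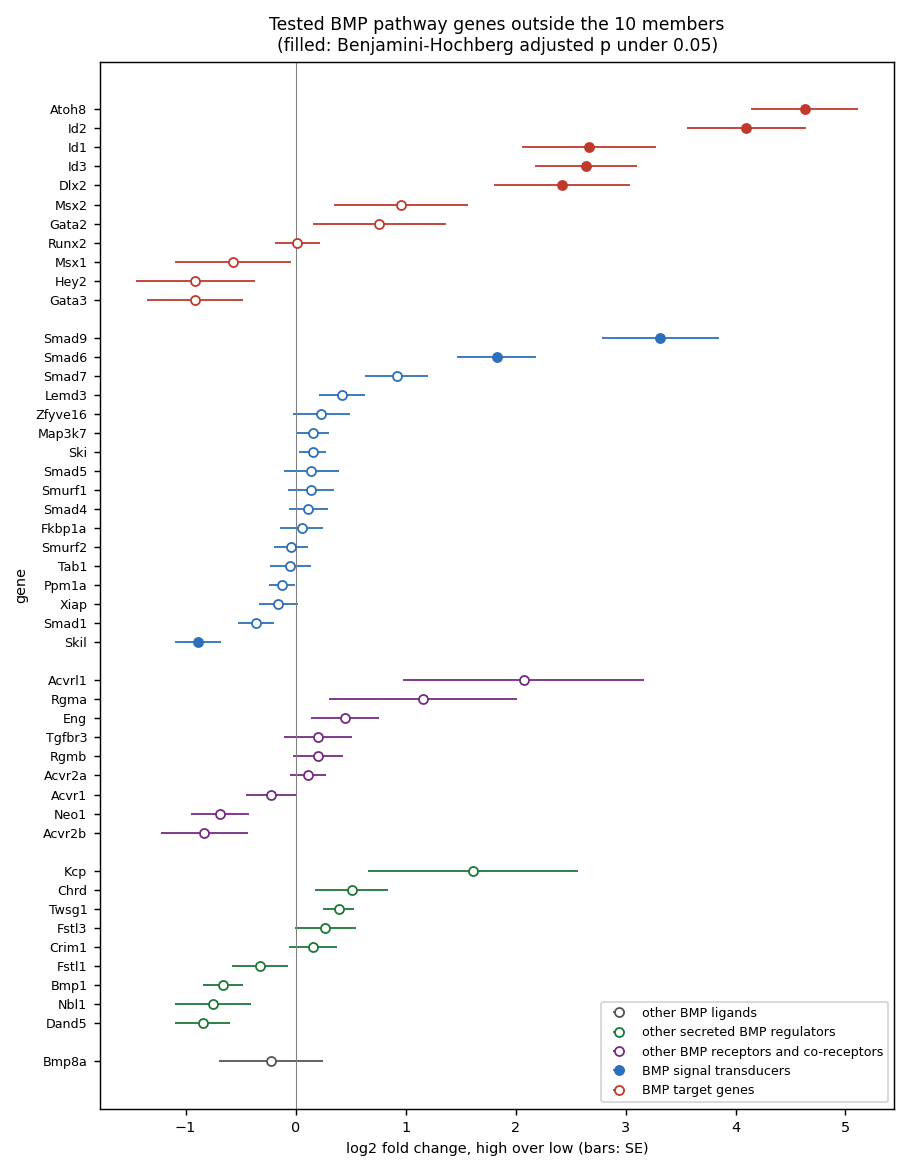
Log2 fold change, high over low, with SE (horizontal axis), of the 47 tested BMP pathway genes outside the 10 described above, coloured by list. Filled points passed an adjusted p of 0.05: Atoh8, 3 Id genes, Dlx2, Smad9 and Smad6 rose, Skil fell, and the ligands, secreted regulators and receptors are open points.

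Among target genes 5 of 11 rose and 0 fell, with a median log2 fold change of 0.96 beside 0.02 over all tested genes. Since this list was drawn up with some results of these data known, that comparison is a description. Atoh8, a basic helix-loop-helix transcription factor gene, was at 30.8, 116.2, 116.4, 56.8 and 43.0 CPM in high 1 to high 5 and at 1.55 to 4.56 CPM in the low libraries. That is a rise of 4.63 (log2, SE 0.49, edgeR adjusted p = 0.00199), called with any 1 library left out. Dlx2, a homeobox gene, was at 0.762 to 13.2 CPM in the high and 1.03 to 1.85 CPM in the low libraries, with high 1 below them all. Its rise of 2.42 (SE 0.62, edgeR adjusted p = 0.048) was kept only without high 1 and lost without any 1 of the other 9 libraries (adjusted p 0.0501 to 0.107, log2 fold change 2.06 to 2.62), and limma-voom did not call it (adjusted p = 0.183). Id1, Id2 and Id3, whose proteins block basic helix-loop-helix factors, rose by 2.67, 4.10 and 2.64 (edgeR adjusted p = 0.0346, 0.00564 and 0.0158), the Id1 call being lost without high 2, high 3 or any 1 of the low libraries (adjusted p 0.0507 to 0.0783). The other 6 tested target genes did not pass.

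Of the 17 signal transducers 2 rose and 1 fell, with a median log2 fold change of 0.14. The rises were Smad9, a receptor-activated Smad (3.32, SE 0.53, edgeR adjusted p = 0.012), and Smad6, an inhibitory Smad (1.83, SE 0.36, adjusted p = 0.022, lost at 0.0532 without low 1 and 0.0536 without low 4), and both, like the 3 Id genes, were highest in high 3 and lowest in high 1 among the high libraries. The fall was Skil, a corepressor of Smads, from 47.9 ± 9.22 to 25.9 ± 6.84 CPM (SD, n = 5 each; log2 fold change -0.89, SE 0.21, edgeR adjusted p = 0.0367). The Skil call was kept without high 3 or low 5 and lost without any 1 of the other 8 libraries (adjusted p 0.0502 to 0.0944, log2 fold change -0.95 to -0.77). The 3 most abundant transducer RNAs, Fkbp1a (log2 fold change 0.05), Ski (0.15) and Smurf1 (0.14), did not pass.

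Bmp2, Atoh8 and Dlx2 also had high 3 as their highest and high 1 as their lowest high library. For Bmp2, Smad6 and Atoh8 the whole order was high 3, high 2, high 4, high 5 and high 1, high 3 and high 2 being nearly tied for Atoh8. For Id1, Id2, Id3 and Dlx2 it differed only in that high 4 came before high 2. Smad9 departed from both, with the order high 3, high 5, high 2, high 4 and high 1. In high 1, where Bmp2 was at 0.406 CPM and so no higher than in the low clones, Atoh8 was at 30.8 CPM, above every low library. With 5 clones in a group these orders are a description.

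**Figure D4:**
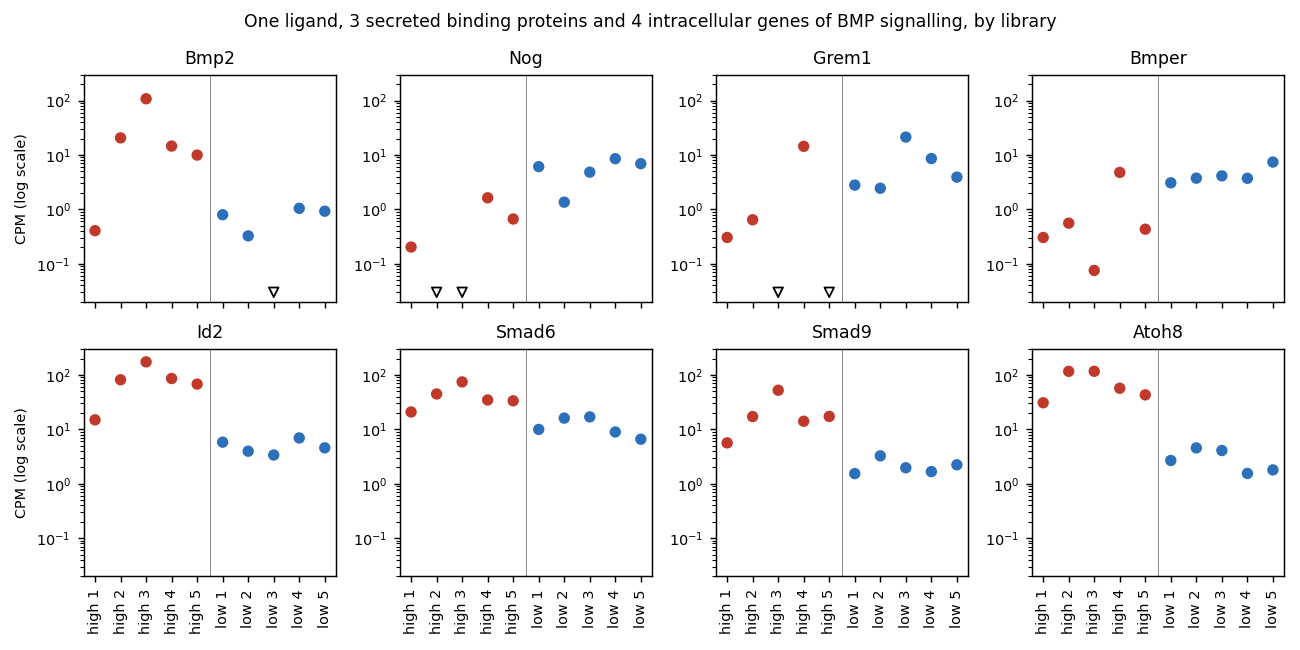
CPM (vertical axes, log scale) in each high (red) and low (blue) library of Bmp2, of the secreted binding protein genes Nog, Grem1 and Bmper, and of 4 intracellular genes of the pathway. Open triangles mark libraries with 0 counts. Among the high libraries high 3 is the highest and high 1 the lowest for Bmp2 and the 4 genes in the lower row, whereas Nog, Grem1 and Bmper are highest in high 4.

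The extracellular genes of the lists gave no calls in edgeR. Among 9 tested secreted regulators 0 passed. At an unadjusted p under 0.05 there were 3, and DESeq2 called 2 (Bmp1 and Dand5, the latter named after its values were seen) where limma-voom called 0. The most abundant were Fstl1, a follistatin-like glycoprotein gene (375.8 ± 117.3 CPM high, 469.9 ± 134.1 CPM low, log2 fold change -0.32), Bmp1, a metalloproteinase that cleaves procollagen and the BMP antagonist chordin (123.8 ± 24.3 and 195.2 ± 41.1 CPM, -0.66), and Crim1 (93.5 ± 19.7 and 83.8 ± 24.3 CPM, 0.16; SD, n = 5 each). Bmp1, on chromosome 14, had an edgeR adjusted p of 0.0607, was called by DESeq2 (0.0145), and was at -0.29 with the chromosome shift taken out. Dand5, on chromosome 8, was at a log2 fold change of -0.84, and at -0.26 with the shift of its chromosome taken out. Among 9 tested receptors and co-receptors 0 passed in edgeR, DESeq2 or limma-voom, with 1 (Neo1) at an unadjusted p under 0.05 in edgeR. Neo1, the neogenin receptor of repulsive guidance molecules, was at a log2 fold change of -0.69 and was called without high 4, the co-receptor gene Tgfbr3 at 0.20 and the type I receptor gene Acvr1 at -0.22. Bmp8a (-0.22) was the 1 tested gene among 11 other ligand genes of the count table. It did not pass in edgeR (0 of 1 at an unadjusted p under 0.05), DESeq2 or limma-voom and had 0.278 to 2.09 CPM per library. Bmp5, Gdf2 and Gdf7 had 0 counts throughout. Gdf5, a BMP-family ligand of joints, did not pass the expression filter and was singled out after its values were seen: it was at 0.278 to 2.53 CPM in the high and at 0.0469 to 0.125 CPM in the low libraries, with no overlap. Gdf5 was called with no filter and in 4 of the fits that left out a library (high 4, low 1, low 4 or low 5).

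Of 13 tested TGF-beta and activin ligand and receptor genes 0 rose and 2 fell, with a median log2 fold change of -0.21. Tgfbr2, the type II receptor of TGF-beta, fell from 202.1 ± 42.7 to 75.9 ± 21.9 CPM (SD, n = 5 each; log2 fold change -1.41, SE 0.22, edgeR adjusted p = 0.00964) and stayed called with any 1 library left out, though not without both low 2 and low 3 (log2 fold change -1.45). Inhbb, the activin B subunit gene, was at 0.543 to 6.26 CPM in the low and 0.172 to 0.599 CPM in the high libraries and fell by 2.83 (SE 0.66, edgeR adjusted p = 0.0357). The Inhbb call was lost in 7 of 10 fits, those without high 2, high 3, high 4, high 5, low 1, low 4 or low 5 (adjusted p 0.0521 to 0.0849), in limma-voom (0.0891) and with the offset per chromosome (0.0661). Ltbp1 and Ltbp3, which encode proteins that anchor latent TGF-beta in the matrix, were the most abundant of this list with Tgfbr2, at log2 fold changes of -0.07 and 0.39, and did not pass.

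The genes whose pattern over the 10 libraries was most like that of each BMP gene, after each group's mean was taken out, were listed as a description. For Bmp2 they were Vps52 (Pearson r = 0.96) and Id2 (0.95). For Nog they were Krt19 (0.93) and Mrm3 (0.92), and for Grem1 Chst15 (0.97) and Rlim (0.96). For Bmper they were Adgrf5 (0.96) and Myom2 (0.95), for Bambi Pcdhb22 (0.97) and Utp14b (0.92), and for Bmp4 Bzw2 and Rpl7l1 (both 0.96). For Bmpr1a they were Peg10 and Palld (both 0.97), and for Bmpr2 Atp5s (0.96) and Tmem184c (0.94). The libraries share these values' scaling, and with so many genes and 10 libraries high values of r are common.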

How the data were processed

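Poly(A) RNA of 10 libraries was read after directional library preparation, per the labels' protocols. Per the submitters' processing notes GRCm38, STAR 2.7.8a, R 4.2.1 and DESeq2 1.36.0 were used, without saying what each did. Which tool counted, with which strand setting and annotation, the sources used here do not say. The deposited table gives, for each Ensembl gene, unnormalized whole counts of reads as the authors made them, 1 column per library. Genes were named, placed and measured in exon length with GENCODE M21 (GRCm38), which left 195 identifiers unnamed.

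Counts were tested with edgeR 4.0.16 (R 4.3.3): default filter by group, TMM, robust quasi-likelihood F-tests (two-sided), Benjamini-Hochberg over all tested genes, threshold 0.05, group as the only term. SE is |log2 fold change| over the square root of F. Log2 CPM used a prior count of 2. For a chromosome's deviation in a library, each gene's log2 CPM was set against that gene's median, and the median was taken over genes averaging above 3. The code was tested on simulated counts with known changes.

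The members, the lists and the alternatives were chosen with earlier results of these data known. The genes named are the 10 members, called genes and up to 3 of the most abundant genes of each list, and for each tested member the 2 genes (at least 1 CPM) with the highest Pearson r. Cell type markers, list genes at 0, Dand5 and Gdf5 are named besides. Smad and Id genes have 2 sentences of results, beside captions, orders of the high libraries, genes of like pattern, outlying values and lost calls. Alternatives were RLE and upper-quartile scaling, 2 other filters, replicate number and sample code number as terms, each library left out, low 2 and low 3 left out, DESeq2 1.42.0, limma-voom (limma 3.58.1) and an offset per chromosome.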

Additional observations from a re-analysis of the deposited data

Results flagged for a closer look

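In groups of 5 libraries, a single library stood apart from the other 4 of its group (by Dixon's gap test) in 7 of 39 groups examined, over the 10 BMP genes and the called pathway genes. Chance flags about 1 group in 20 where values are normally distributed; the rate for these skewed values was not determined, so the 2 shares are not compared. Bmp2 was at 107.7 CPM in high 3, with the other high libraries at 0.406 to 20.6 CPM. Grem1 was at 14.4 CPM in high 4, with the others at 0 to 0.645 CPM. Bmper was at 4.77 CPM in high 4, with the others at 0.0757 to 0.559 CPM, and at 7.40 CPM in low 5, with the other low libraries at 3.08 to 4.13 CPM. Bmp6 was at 1.25 CPM in low 1, with the other low libraries at 0 to 0.109 CPM. Bambi was at 2.12 CPM in low 5, with the others at 0.563 to 0.962 CPM. Smad9 was at 52.2 CPM in high 3, with the other high libraries at 5.64 to 17.3 CPM.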

How the results depend on the processing

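Over all genes the edgeR count of 630 calls was 1475 with DESeq2, 165 with the offset per chromosome and 56 without low 2 and low 3, and ran from 232 to 821 with 1 library left out. The 8 calls among other BMP pathway genes became 5 with the replicate block, 5 with the offset per chromosome and 1 without low 2 and low 3, and 5 to 10 with 1 library left out. The calls lost with the block, and also with the offset, were those of Skil, Id1 and Dlx2. With the offset their edgeR adjusted p values were 0.124, 0.062 and 0.0886. With the replicate block the count over all genes was 577. Same-numbered libraries correlated at -0.053 to 0.455 after removal of group means, and 4 of 10 correlated best with their own number. With 5 libraries in a group this cannot decide whether the replicate numbers pair the libraries. Members called (1 in edgeR) were 2 with DESeq2, 2 with limma-voom, 1 with the replicate block (Nog, not Bmp2), 0 without the filter, 0 with the code number, 0 with the offset per chromosome and 0 without low 2 and low 3 (2 to 4 at an unadjusted p under 0.05 in these 4 edgeR fits), and 0 to 4 with 1 library left out. Members whose groups did not overlap were 2 without low 2 and low 3, and 0 to 3 with 1 library left out, against 0 with all libraries, where 11.8% of all tested genes did so without low 2 and low 3, 10.7% without high 1, 11.2% without high 4 and 8.88% without low 2. Bmp6, counted without low 2, did not pass the filter that these shares rest on. The fold changes of Bmp2, Bmp4, Nog, Grem1, Bmper and Bambi kept their sign in all alternatives run. Bmpr1a changed sign in 6 of 20 and Bmpr2 in 14 of 20. The tested members with a spread above the median stayed at 6 or 7 of 8. At this depth, members below 1 CPM rest on few counts. The causes of these changes were not tested.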
